A study of Drosophila melanogaster with 4 samples.

Results

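Long circRNAs with unique ends are circular RNAs of fly heads whose 2 ends are each used by no other listed circRNA, and whose ends lie at least 2000 bases apart on the genome. A row of the deposited circRNA table was taken where neither its first nor its second coordinate occurred in another row of the same chromosome and the second minus the first was 2000 or more. This chose 231 of 2563 circRNAs (9.01%), from 211 of 1195 host genes. The rule used coordinates and no read. The other 2332 rows comprised 1162 shorter circRNAs with unique ends, 550 long circRNAs that shared at least 1 end with another row, and 620 shorter ones with a shared end.

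The study sequenced ribosome footprints, the RNA stretches that ribosomes shield from nuclease, from Drosophila melanogaster heads. There were 2 libraries made with high detergent buffer and 2 with low detergent buffer, and the labels give no genotype, strain, sex or age. Heads hold brain, eye, fat body and muscle, so the cell type behind a read is not known. The labels do not say which head column belongs to which buffer, so the buffers were not compared and each value here comes from the authors' read count summed over all 4 libraries.

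A circRNA forms when the spliceosome joins an exon's downstream end to an upstream splice site in place of the next exon, which closes the exons in between into a ring with no cap and no tail. Exons at the back-splice are usually flanked by long introns in fly genes, and nervous tissue is rich in such circles. A ring that keeps the host gene's start codon can be read by ribosomes from there and across the junction. There the exons follow in an order that the linear mRNA does not hold. The reads counted here were taken to be footprints over that junction, which the table does not state.

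Footprints on the long unique-ended circRNAs were few. Of the 231, 13 had at least 1 read (5.63%, exact binomial 95% interval 3.03% to 9.43%), against 4.76% of all rows in the table. One read was counted on 12 of them, 2 reads on 1, and none had 3 or more. In all rows 1.01% had at least 2 reads, and the 6 rows with 3 or more were all outside the long unique-ended set. Together the 13 circRNAs carried 14 of the table's 230 reads (6.09%). A single read has an exact Poisson 95% interval of 0.0253 to 5.57 reads, and 2 reads have one of 0.242 to 7.22, so no order among these 13 can be read from their counts. Intervals here cover counting error only, since all libraries are pooled and copies made by PCR cannot be told apart.

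The one circRNA with 2 reads came from CG14082 on chromosome 3L (dm3 19103193 to 19105619). Its span of 2427 bases equalled the distance across exons 3 and 4 of a 5-exon transcript. Those exons sum to 406 bases, so intron made up 83.3% of the span. The first of them ends just past the annotated start codon, which all 3 coding transcripts with this block hold.

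The annotated start codon also lay inside the blocks of cic and Tdg in every coding transcript that matched. The gene cic (capicua) encodes an HMG-box transcriptional repressor. Its circRNA, on chromosome 3R from 16113671 to 16116808, spanned 3138 bases and covered exons 2 to 6, which sum to 2413 bases with 2281 coding. Tdg encodes thymine DNA glycosylase, a base excision repair enzyme, and the table lists it as Thd1. Its circRNA lay on chromosome 4 from 569885 to 574367, spanned 4483 bases and covered exons 2 to 5, with 2736 coding bases among 2901. Each had 1 read, so the 3 read-bearing circles with a start codon in all matching transcripts held between 406 and 2901 exon bases.

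Another 3 read-bearing circRNAs held a start codon in some matching transcripts only. The block of l(2)gl, a cell polarity gene and tumour suppressor, held one in 3 of 11 coding transcripts. It lay on chromosome 2L from 13520 to 15711, and its 3 exons filled 2077 of 2192 bases, leaving 5.25% intron. In mtd (mustard), a gene of the TLDc family, the block of 5 exons on chromosome 3R from 1119784 to 1122357 held a start codon in 1 of 18 transcripts. In Mp (multiplexin), a collagen of basement membranes, the block of 6 exons on chromosome 3L from 7031105 to 7038455 held one in 1 of 14. The Mp circle had the longest span of the 13, with 7351 bases of which 88.2% were intron.

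The 5 other read-bearing circRNAs at exon ends held coding exons with neither start nor stop codon. Among them, 2 came from genes of immunoglobulin-superfamily cell surface proteins. The circRNA of sns (sticks and stones), needed for myoblast fusion, lay on chromosome 2R from 4707086 to 4709437 with 2 exons of 327 bases in all. That of beat-Vc, of the beaten path family, lay on chromosome 3R from 8578140 to 8580512 with 2 exons of 369 bases. A circRNA of pyd (polychaetoid), a junction scaffold, covered 6 exons of 1532 bases on chromosome 3R from 4657864 to 4660671. Asator, a tau-tubulin kinase gene, gave 2 exons of 285 bases on chromosome 4 from 495586 to 497728. Flo2, a flotillin of membrane microdomains, gave 3 exons of 366 bases on chromosome X from 14818259 to 14820907.

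The remaining 2 did not match exon ends. They were CG11768 on chromosome 3R from 4579893 to 4581934 (2042 bases) and the serotonin receptor gene 5-HT7 on chromosome 3R from 26795481 to 26797669 (2189 bases). By chromosome, reads lay on 6 of 51 long unique-ended circRNAs on 3R, where 3.97% of all rows had a read, on 2 of 39 on 3L (4.84% of all rows) and on 2 of 9 on chromosome 4 (10.7% of all rows). They lay on 1 of 36 on 2L (5.71% of all rows), 1 of 47 on 2R (2.95%) and 1 of 45 on X (4.70%).

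**Figure D1:**
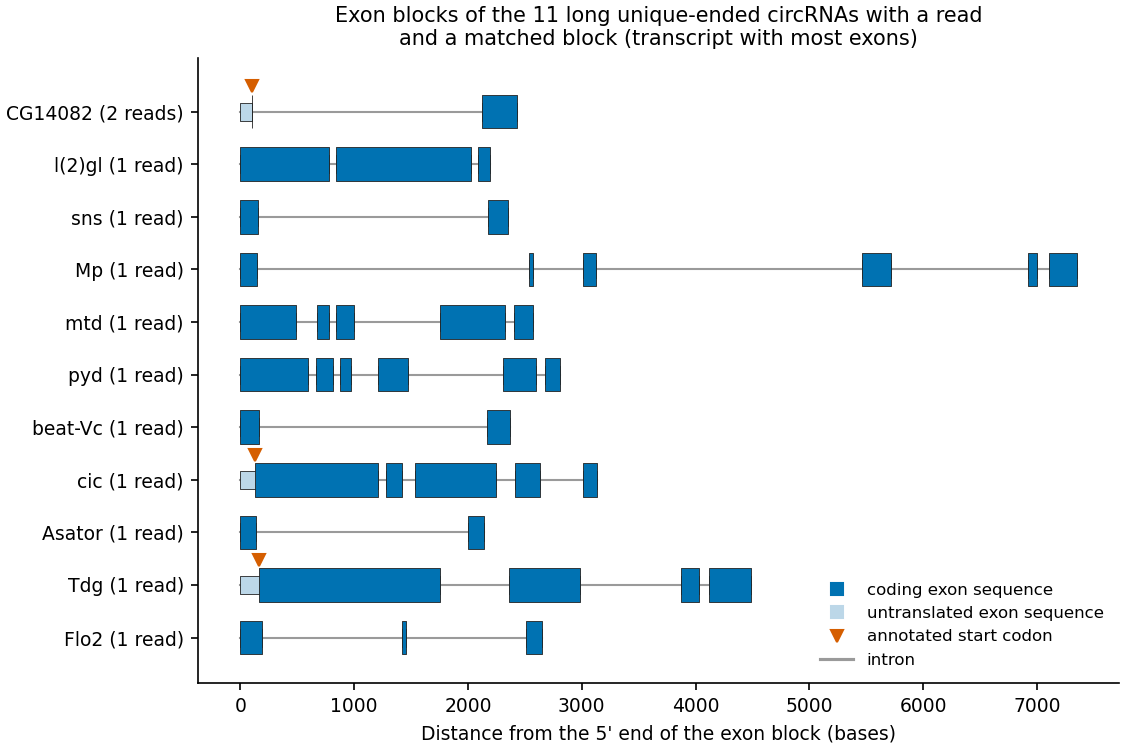
Exon blocks of the 11 read-bearing long unique-ended circRNAs that matched 1 block, drawn in transcript direction to 1 scale in bases from the 5′ end. Dark boxes are coding exon sequence, pale boxes untranslated sequence, lines introns and triangles annotated start codons, in the matching coding transcript with most exons. The blocks of CG14082, cic and Tdg carry a triangle, those of l(2)gl, Mp and mtd hold a start codon in other transcripts only, and CG14082, sns, beat-Vc and Asator show 2 exons beside 1 long intron.

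The share with a footprint, set against that of the other circRNAs, gave intervals of the difference that held 0 at this span threshold. It was 5.63% (13 of 231) against 4.67% (109 of 2332) in all other rows, a difference of 0.954 percentage points (Newcombe 95% interval -1.54 to 4.80). Against the 1162 shorter unique-ended rows, of which 49 had a read (4.22%), it was 1.41 points (-1.25 to 5.31). Against the 550 long shared-end rows, of which 27 had a read (4.91%), it was 0.719 points (-2.43 to 4.77). The intervals treat each row as independent. Reads per 100 circRNAs were 6.06 (exact Poisson interval 3.31 to 10.2) in the long unique-ended set and 9.26 (8.07 to 10.6) in the other rows, where a single row carried 42 of 216 reads. Requiring 2 reads, or keeping rows at exon ends only, turned the sign of the difference from all other rows, and a span of at least 3000 did so as well. With a span of at least 1500 it was 2.79 points (0.298 to 6.16), and 3.60 points (0.948 to 7.02) from the shorter unique-ended rows, so both intervals then lay above 0.

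Within the long unique-ended set most reads lay on circRNAs of shorter span on the genome, which is not the summed exon length. Of 106 with a span of 2000 to under 3000 bases, 10 had a read (9.43%), against 3 of 125 at 3000 or more (2.40%). The difference was 7.03 points (Newcombe 95% interval 0.918 to 14.3), in a comparison added after the data were seen. By finer bands, 2 of 62 had a read at 3000 to under 5000 bases, 1 of 37 at 5000 to under 10000, and 0 of 26 at 10000 or more, where the exact upper limit is 13.2%. Shared-end rows showed a difference of the same sign, with 10 of 115 (8.70%) at 2000 to under 3000 bases against 17 of 435 (3.91%) at 3000 or more, or 4.79 points (0.276 to 11.5). From 2000 to under 3000 bases the unique-ended and shared-end shares differed by 0.738 points (-7.08 to 8.81). The difference by span among the long unique-ended circRNAs was 5.70 points (-0.595 to 13.2) over rows at exon ends only, and 0.943 points (-2.14 to 5.15) at 2 or more reads, so it rests on single reads and partly on the 2 circRNAs away from exon ends.

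**Figure D2:**
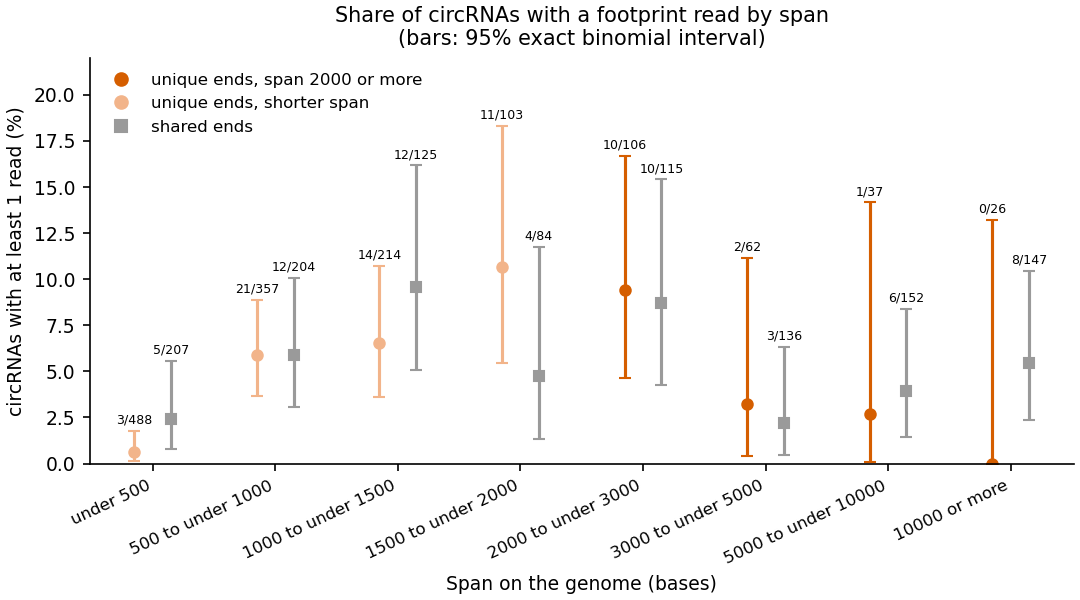
Share of circRNAs with at least 1 footprint read, in percent, by span on the genome in bases. Dark circles are long unique-ended rows, pale circles shorter unique-ended rows and squares shared-end rows, with counts printed and bars giving exact binomial 95% intervals. Unique-ended rows run from 0.615% under 500 bases through 10.7% at 1500 to under 2000 and 9.43% at 2000 to under 3000 to 0 of 26 at 10000 or more, with wide overlapping bars above 1000 bases.

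Long unique-ended circRNAs lay at annotated exon ends more often than the other rows. The spans of 210 of 231 (90.9%, exact interval 86.4% to 94.3%) equalled an exon block of the named gene, that is, 1 exon or a run of neighbouring exons of 1 transcript with the introns between them. In the other rows with a gene model 1740 of 2326 did (74.8%), a difference of 16.1 points (Newcombe 95% interval 11.4 to 19.7). In shorter unique-ended rows it was 763 of 1158 (65.9%), a difference of 25.02 points (19.9 to 29.2). From long shared-end rows, with 487 of 549 (88.7%), the difference was 2.20 points (-2.81 to 6.44). After adding or removing 1 to 11 bases from each span, between 0 and 7 of the 231 matched (at most 3.03%). Of the 210, 206 matched 1 block and are described next, 4 matched several, and 21 lay away from exon ends. Among the 21, 2 had spans that joined exon ends of different transcripts of the gene.

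Most of what these circles spanned was intron. The median span was 3113 bases (2000 to 91146), and the median sum of exons was 959 bases (95% interval of the median 833 to 1195, interquartile range 468 to 2074, n = 206). Intron took a median of 71.9% of the span (interval 65.1% to 77.8%). These are annotated lengths: a junction read does not show whether an intron stays in the ring. Summed exons ranged over 2 orders of size, with a minimum of 123 and a maximum of 14967 bases. By span, the median was 1052 bases at spans of 2000 to under 3000, 868 at 3000 to under 5000, 1111 at 5000 to under 10000 and 596 at 10000 or more.

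Intron weighed less in them than in long circRNAs with a shared end. Over 50% of the span was intron in 136 of 206 (66.0%) long unique-ended rows and in 432 of 482 (89.6%) long shared-end rows, a difference of -23.6 points (Newcombe 95% interval -30.7 to -16.8). The long shared-end rows also had longer spans, with a median of 5452 bases. Within bands of span the difference was -20.2 points (-32.9 to -6.69) at 2000 to under 3000 bases, -20.8 points (-34.3 to -8.07) at 3000 to under 5000, -13.1 points (-29.6 to -2.35) at 5000 to under 10000 and -3.37 points (-22.0 to 2.44) at 10000 or more. The median intron shares differed less, with 53.5% in long unique-ended against 64.7% in long shared-end rows in the first band, 74.0% against 75.1% in the second, 84.1% against 86.8% in the third and 97.3% against 94.8% in the last, where the long unique-ended median was the higher. These comparisons were added after the data were seen.

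The extremes show both kinds of circle. The highest intron shares were those of heph (98.86%), the polypyrimidine tract-binding splicing regulator, and nAChRalpha4 (98.85%), an acetylcholine receptor subunit. They were followed by circles of bru3 (98.82% and 98.54%), a CELF-family RNA-binding protein, and of spen (98.56%), a transcriptional regulator. In heph 2 exons of 123 bases in all stood in a span of 10751 bases. The longest spans were 91146 bases in Myo81F, a myosin gene, 44798 in the neural cadherin CadN, 42783 in bru3, 35386 in nAChRalpha4 and 32529 in pyd, of which those of Myo81F and pyd lay away from exon ends. At the other end, the most exon sequence lay in dpy (dumpy), a giant extracellular matrix protein, whose 10 exons summed to 14967 bases. Single exons of ft (the cadherin fat, 5560 bases) and Ank2 (an ankyrin of axons, 5132 bases) came next, then a further circle of dpy (5106 bases) and a single exon of chif (chiffon, 5047 bases). None of these 13 circRNAs had a read.

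**Figure D3:**
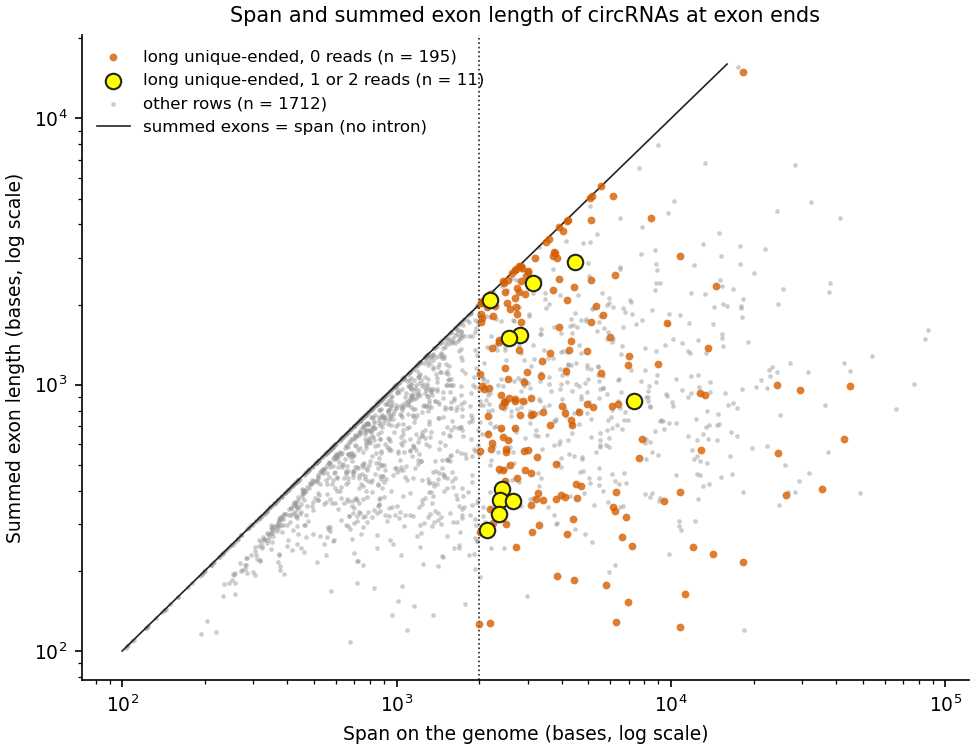
Span on the genome and summed exon length, both in bases on log scales, of circRNAs at exon ends. Orange points are the 195 long unique-ended circRNAs with 0 reads, large yellow points the 11 with 1 or 2 reads, and grey points the 1712 other rows; the diagonal marks circles without intron and the dotted line a span of 2000. Read-bearing circles lie between 285 and 2901 exon bases, all but 3 of them at spans under 3000.

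Circles of 2 and 3 exons were the most frequent. The median was 3 exons (interquartile range 2 to 5, n = 206), and 71 (34.5%) had 2 exons, against 72 of 482 (14.9%) long shared-end rows, whose spans were longer. At matched spans the median exon numbers were 3 and 3 at 2000 to under 3000 bases, 3.5 in long unique-ended against 4 in long shared-end rows at 3000 to under 5000, 3 against 4 at 5000 to under 10000 and 3 against 5 at 10000 or more. A single exon made up 14 (6.80%), against 2 of 482 (0.415%) long shared-end rows, a difference of 6.38 points (Newcombe 95% interval 3.47 to 10.7), and against 352 of 1712 (20.6%) other rows, a difference of -13.8 points (-17.1 to -9.10). Most exons were joined in Cngl, a relative of cyclic nucleotide-gated channels, with 14, then in Tomosyn, a regulator of vesicle fusion, with 12, and in dpy with 10. A further 3 circles had 9, from CG42540, the cation channel gene Trpm and dpy. No block held the first or the last exon of its transcript, and 69 of 206 (33.5%) began at exon 2, against 563 of 1712 other rows (32.9%).

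Reads were not confined to a class of exon number. They lay on 4 of 71 circles with 2 exons, 2 of 35 with 3, 1 of 31 with 4 and 4 of 43 with 5 to 7, and on 0 of 14 with 1 exon and 0 of 12 with 8 or more, where exact upper limits are 23.2% and 26.5%. By summed exons, 6 of 108 had a read under 1000 bases (5.56%), 2 of 41 at 1000 to under 2000 (4.88%) and 3 of 57 at 2000 or more (5.26%). By intron share, 2 of 51 had one under 25%, 3 of 62 at 25% to 75% and 6 of 93 over 75%. None of the 43 with over 90% intron did (upper limit 8.22%). These upper limits lie above the 4.76% of all rows with a read, so the counts of 0 do not set a class apart.

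**Figure D4:**
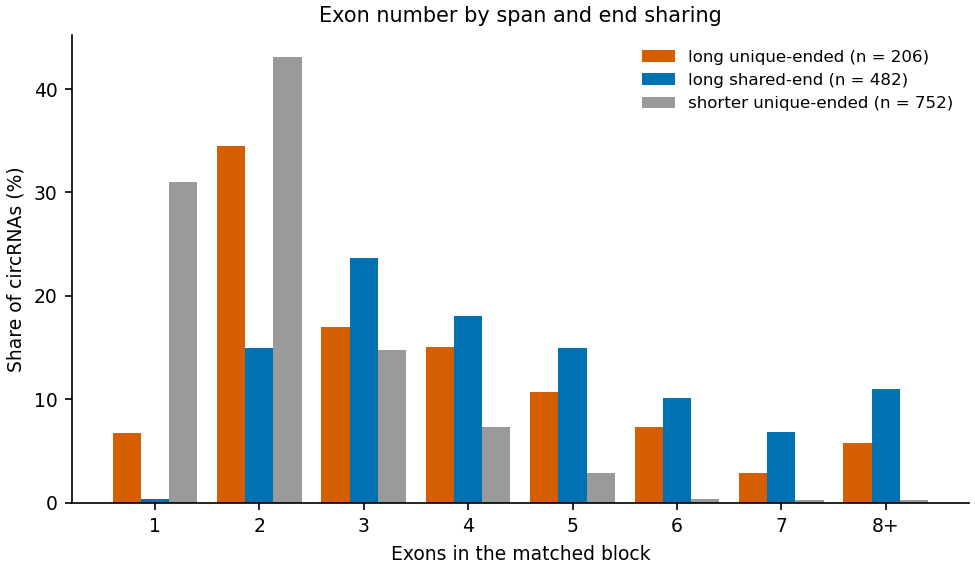
Share of circRNAs at exon ends, in percent, by the number of exons in the matched block, for 206 long unique-ended, 482 long shared-end and 752 shorter unique-ended rows. Long unique-ended circles peak at 2 exons (34.5%), long shared-end ones at 3 (23.7%), and single exons make up 31.0% of the shorter unique-ended rows.

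The introns at the ends of these circles were long beside others of the same transcripts. The intron before the block had a median of 3810 bases (95% interval 2973 to 4784) and the one after it 2378 bases (1808 to 2949), while the 2051 other introns of the matched transcripts had a median of 296. The intron before the block was the longest of its transcript in 71 of 206 (34.5%), and the one after it in 38 (18.5%). It measured 1000 bases or more in 170 (82.5%), and 18 (8.74%) had both flanking introns under 1000. The other rows gave like values, with medians of 4082 before and 2396 after the block, and 82.2% with an intron of 1000 or more before it. Among read-bearing circles the intron before the block ranged between 189 bases in Asator and 83206 in Flo2.

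**Figure D5:**
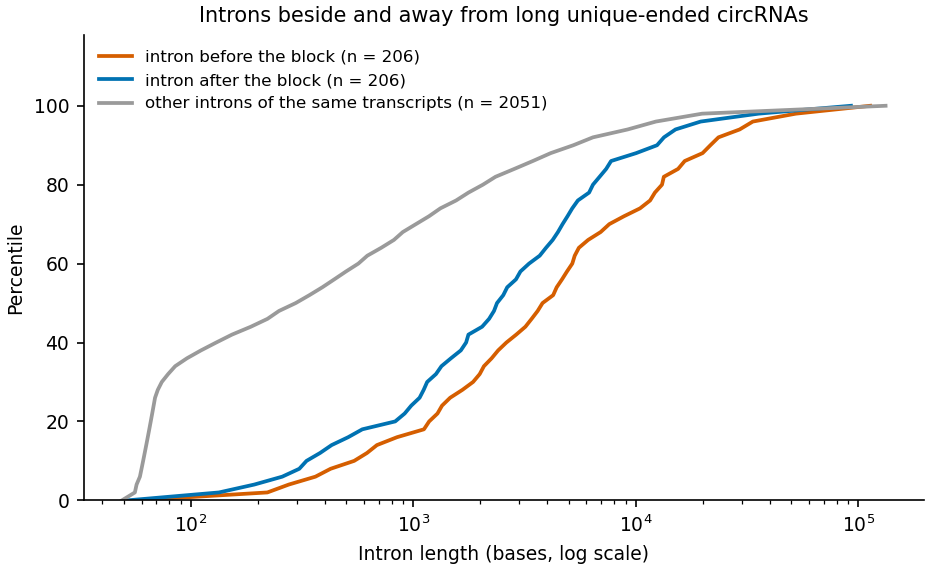
Percentiles of intron length in bases, on a log scale, for the 206 introns before and the 206 after long unique-ended circRNAs and for 2051 other introns of the same transcripts. Both flanking curves lie right of the grey curve over nearly their whole range, with medians of 3810 and 2378 bases against 296.

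Start codons lay in many of the blocks and stop codons in few. All 206 matched coding transcripts, and 87 (42.2%, exact interval 35.4% to 49.3%) held the annotated start codon in at least 1 matching transcript, against 637 of 1711 other rows (37.2%). The difference was 5.00 points (Newcombe 95% interval -1.94 to 12.2). In 71 of the 87 every matching coding transcript held it, and in 16 only some did. A stop codon was held by 13 (6.31%, interval 3.40% to 10.6%), against 48 of 1711 other rows (2.80%), a difference of 3.51 points (0.769 to 7.75). It was 4.05 points (1.14 to 8.32) against shorter unique-ended rows (17 of 751) and 2.16 points (-1.22 to 6.59) against long shared-end rows (20 of 482). In all matching coding transcripts the stop codon was held by 9 of 206, against 24 of 1711 other rows. That difference was 2.97 points (0.804 to 6.72).

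Both codons lay in 4 circles, which thus span a coding sequence from start to stop. They came from sNPF-R, a receptor for short neuropeptide F, Su(z)2, a Polycomb group relative, CG13739 and CG1504. In sNPF-R 1 exon of 2025 bases held 1803 coding bases, and in CG13739 1 exon of 3918 bases held 2628. In Su(z)2 4 exons held 4107 coding bases, and in CG1504 2 exons held 1278. The block of Su(z)2 held the stop codon in 2 of 3 coding transcripts. None of the 4 had a read (exact upper limit 60.2%). A stop codon without a start codon was held by 9 circles, from CG42524, mbl, RIC-3, Glut1, Ank2, CG33158, foxo, Eph and para. The blocks of RIC-3 and Glut1 each held it in 1 of 8 coding transcripts, and that of para in 2 of 20. Among the 9, mbl encodes the splicing regulator muscleblind and para the voltage-gated sodium channel. None of the 9 had a read (exact upper limit 33.6%).

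By codon content, reads lay on 6 of 83 circles with a start and no stop codon (7.23%) and on 5 of 110 with neither (4.55%). Of all rows 4.76% had a read, so 0 of 4 with both codons and 0 of 9 with a stop only do not set these classes apart. Among the 110, 5 held only untranslated sequence. With any start codon the share was 6 of 87 (6.90%), against 5 of 119 without (4.20%), a difference of 2.70 points (Newcombe 95% interval -3.73 to 10.4). It was -1.70 points (-7.71 to 6.32) when all matching transcripts had to hold the codon. Of the circles with a start and no stop codon, 73 were so in the matching transcript with most exons, with a median of 862 coding and 159 untranslated bases.

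A ring of coding sequence alone keeps 1 reading frame all the way round if its length divides by 3. Of 116 circles with coding sequence only, 47 did (40.5%), against 407 of 1105 in the other rows (36.8%), a difference of 3.69 points (Newcombe 95% interval -5.28 to 13.2). Reads lay on 4 of the 47 (8.51%) and on 4 of the 69 whose length did not divide by 3 (5.80%), a difference of 2.71 points (-6.96 to 14.7). In the other rows with coding sequence only, they lay on 18 of 407 (4.42%) and 34 of 698 (4.87%). That difference had the opposite sign, at -0.45 points (-2.91 to 2.36), and 4.76% of all rows had a read.

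The host genes mostly gave 1 such circle each. There were 193 genes with 1, 16 with 2 and 2 with 3, namely pyd and bru3. In 100 genes the circle was the only row in the table, while 103 genes had other rows too, of which 11 had a read on another row. Among all 1195 host genes, 110 had a read. Asator alone had reads on both a long unique-ended circle and another row. Of the 13 genes with a read on such a circle, only Asator, cic, l(2)gl and mtd had other rows. With so few genes, an overlap of 1 does not show that reads on the 2 kinds of row avoid each other. On the genome 183 of the 231 (79.2%) overlapped no other row of the table, 48 overlapped at least 1, and 10 contained another row whole. Of 20 neighbouring pairs in 1 gene, 11 lay apart and 9 shared bases, with 1 pair nested, in CG42540. The 3 circles of bru3 formed a chain on chromosome 3L (13534589 to 13577371, 13577292 to 13595576 and 13595442 to 13601946), in which neighbours shared 80 and 135 bases.

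By gene list, 69 circles from 59 genes fell on at least 1 of 12 lists, and 2 of these had a read, 5-HT7 and sns. Ion channels and neurotransmitter receptors gave 13 circles from 13 genes, 1 with a read, and included para, the calcium channel cac, the potassium channel eag and the dopamine receptors Dop1R2 and Dop2R. Adhesion and axon guidance gave 11 from 9 genes, 1 with a read, and included CadN, Dscam1 and Lar. Signalling enzymes gave 10, RNA-binding and splicing regulators 9, synapse and vesicle release 8, cytoskeleton and traffic 7, photoreceptor genes 6, transcription and chromatin 5 and muscle 3, all with 0 reads. The other rows of these lists had reads on 8 of 90 for signalling enzymes, 8 of 85 for RNA-binding, 7 of 60 for cytoskeleton, 0 of 10 for photoreceptor, 10 of 98 for transcription and 0 of 28 for muscle genes. With 3 to 10 circles a list and 4.76% of all rows with a read, a count of 0 does not set these lists apart. Glia, fat body and cuticle, and translation factors and ribosomal proteins gave 0 circles of 5, 13 and 80 rows.

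As a share of each list's rows, photoreceptor genes stood highest, with 6 of 16 (37.5%), against 9.01% of all rows, a description of few rows with no test. They were 2 circles of norpA, the phospholipase C of phototransduction, and 1 each of rdgA, rdgB, the channel gene trpl and the eye determination gene so. Those of norpA spanned 4610 and 3410 bases with 791 and 789 bases of exon. The 9 circles of RNA-binding genes, 3 from bru3, 2 from pum and 1 each from Rbp6, heph, mbl and msi, had a median span of 9570 and a median exon sum of 230 bases over those with a matched block. The 8 circles of synapse genes had a median span of 2766 and a median exon sum of 1611 bases.

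At the span threshold the nearest circles inside were dlg1 (2000 bases), CG34370 (2006), Proc-R (2017), M7BP (2020) and Dyb (2024). The nearest unique-ended ones outside were chn (1994), CG33543 (1987), Usp2 (1984), sli (1981) and rdgC (1980). All 10 had 0 reads.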

How the data were processed

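Ribosome footprints of fly heads were sequenced in 4 libraries. The build dm3 and the trimmer cutadapt 1.9.1 are named per the submitters' processing notes; an aligner or circRNA caller is not given in the sources used. The deposited table gives whole-number read counts per circRNA, not normalized and, per the file headers, without ribosomal RNA. The authors' counts over all samples (230 reads) were used, and 4 columns per library were not, because the labels do not tie them to a buffer. Depth per library and spread between libraries were thus not examined, and no sample test was made.

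Spans were matched by exact length to exon blocks of the named gene in Ensembl release 115 (BDGP6), a later build, so no coordinate was converted and gene position is as the table gives it. The accession matched a current gene for 227 of 231 names; symbol and accession led to 1 gene in 212, to different genes in 3, and 14 symbols were unmatched and 2 absent. Exon counts are from the matching coding transcript with most exons; 28 circles differ between transcripts. Printed coordinates count from 1.

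Shares have exact binomial intervals, differences in share Newcombe intervals and read sums exact Poisson intervals, at 95%, with no p-value. Python 3.11.15, pandas 2.3.3, scipy 1.17.1 and statsmodels 0.14.6 were used, and matching and intervals were tested on simulated data. The simulated exon blocks came from the annotation they were matched to, so matching of dm3 spans to the later build was not tested by them. A count of 0 was taken to allow an expected count of up to 3, equal in size to 1.30% of the reads. Alternatives were other read minimums and spans, 1 row per gene, exon-end rows only, and other codon and length rules. Named were circles with a read, the 5 extremes of each measure, those nearest the threshold and genes with 3 circles; circles with both codons or a stop codon and photoreceptor and other list genes were named after their values were seen. The circles, lists and comparisons were chosen with earlier results of these data known.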

Additional observations from a re-analysis of the deposited data

How the results depend on the processing

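Across 13 alternatives, 137 of 162 values kept their sign and, for differences, whether the interval held 0, though some of these differences changed in size by over 1.5 times. At 2 or more reads the differences in footprint share from other, shorter unique-ended and long shared-end rows were -0.639, -0.428 and -0.840 points, and that between spans under and from 3000 bases was 0.943. At a span of 1500 or more, the differences from other and shorter unique-ended rows were 2.79 and 3.60 points, with intervals above 0, and the median intron share was 62.8%. At 3000 or more, the 3 footprint differences were -2.48, -2.25 and -1.51 points, reads per 100 circRNAs 2.40, the start codon differences from shorter unique-ended and long shared-end rows -1.41 and -2.58 points, and the intron share 82.8%. With 1 row per host gene, the start codon difference from long shared-end rows was -1.91 points. With rows at exon ends only, the footprint differences from other and shorter unique-ended rows were -0.739 and -1.18 points, that by span 5.70 points, and other rows had 12.1 reads per 100. They had 7.47 without the row with most reads. With a codon required in all matching transcripts, the footprint difference by start codon was -1.70 points. With 1 base added to each span, exon-end differences were -0.424, -0.948 and -0.0450 points, since few spans then match. With rows whose 2 names lead to 1 gene, an alternative added after seeing the data, the difference by span was 6.21 points (-0.248 to 13.6). Causes were otherwise not tested. No paired analysis was possible because the per-library columns could not be tied to a buffer or its replicate number, and the column used is a sum. For a circRNA with 0 reads an expected count of up to 3 was allowed, equal in size to 1.30% of the 230 reads.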
